A study of Capra hircus with 72 samples.

Results

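The interferon response genes described here were chosen by symbol. A list of 9 (MX1, MX2, ISG15, RSAD2, IFIH1, DDX58, IRF7, IRF1 and STAT2) was looked up in the deposited gene table, and 8 had a row among its 21343 genes. DDX58 had no row under that symbol and was not analysed here. All 8 passed the filter on low counts in every region, so the counts below are over all members with a row. By the deposited table MX1 (ENSCHIG00000001865) and MX2 (ENSCHIG00000014150) lie on chromosome 1, IFIH1 (ENSCHIG00000019848) on chromosome 2, STAT2 (ENSCHIG00000016058) on chromosome 5, IRF1 (ENSCHIG00000019913) on chromosome 7, RSAD2 (ENSCHIG00000021832) on chromosome 11, ISG15 (ENSCHIG00000017128) on chromosome 16 and IRF7 (ENSCHIG00000011345) on chromosome 29. Starts and ends are left out, since the span of each of the 8 rows is shorter than its stated gene length and the genome build is not given in the sources used here.

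Interferons are secreted proteins that a cell releases when it senses foreign nucleic acid. Sensors such as IFIH1 (also called MDA5, which binds double-stranded RNA in the cytosol) start the response. Interferon then acts through its receptors on a complex that holds STAT2, and this complex and the IRF family switch on effector genes such as MX1, MX2, ISG15 and RSAD2. In the brain, microglia, endothelial cells, astrocytes and infiltrating leukocytes all use this pathway, and a low level of these transcripts is present without infection.

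The RNA came from brains of female goats (Capra hircus) in 3 conditions and 4 regions, with 6 libraries in each of the 12 groups. Control goats breathed room air for 14 days. In mild chronic hypercapnia, a lasting excess of carbon dioxide, goats breathed 6% CO2 for 14 days, and in moderate chronic hypercapnia 6% CO2 for 7 days followed by 8% CO2 for 7 days. One region was cortical, the medial prefrontal cortex (mPFC). The other 3 are brainstem sites of breathing control: the retrotrapezoid nucleus (RTN), a chemosensory site; the ventral respiratory column (VRC), which holds the breathing rhythm generator; and the NTS, or nucleus of the solitary tract, which receives visceral sensory input. The series description gives 6 animals per condition and 18 in all, and the labels do not say that a replicate number marks an animal. No breed or age is given in the sources used here. With 18 animals for 72 libraries the regions share animals, whichever number marks them. The p-values below measure the spread between these libraries.

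Library totals ran from 12.84 to 31.88 M counts (M for mega), with a median of 19.26 M. The regional labels were compared with textbook markers in the room air libraries. SLC17A7, a vesicular glutamate transporter of cortex, stood at 761 ± 183 CPM (mean ± SD, n = 6) in mPFC and at 6.31 to 56.6 CPM on average in the brainstem regions. HOXA4, a hindbrain patterning gene, averaged 0.0342 CPM in mPFC, 8.42 CPM in RTN, 33.7 CPM in VRC and 44.7 CPM in NTS. Both markers were highest where their roles place them, in cortex and in the brainstem.

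Levels of the 8 genes can be compared with each other only per length, and the deposited RPKM values (reads per kilobase of gene model per M reads) serve for that. They rest on the stated gene lengths, which exceed the span of each of the 8 rows and were not checked. The order of the genes below holds only as far as those lengths do. Over the 72 libraries MX1, a dynamin-like GTPase that traps viruses, had the highest median, at 36.8 RPKM, with a range from 17.2 to 121.0 RPKM. STAT2, the interferon signal transducer, had a median of 32.7 RPKM and IRF1, a transcription factor induced by type II interferon, one of 28.2 RPKM. IRF7, the master factor of type I interferon induction, had a median of 9.07 RPKM. The other effectors and the sensor were lower still: MX2, the paralog of MX1, had a median of 5.91 RPKM, IFIH1 one of 4.66 RPKM, ISG15, a ubiquitin-like modifier, one of 3.88 RPKM, and RSAD2, the antiviral enzyme viperin, one of 3.0 RPKM. MX1 and MX2 are neighbours in the RefSeq gene table of the goat. They are paralogs, and how any reads common to both were counted is not given in the sources used here. ISG15 carries a gene model of 3897 bases, which lowers its RPKM relative to RSAD2 with 1128 bases and IRF1 with 974 bases.

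**Figure D1:**
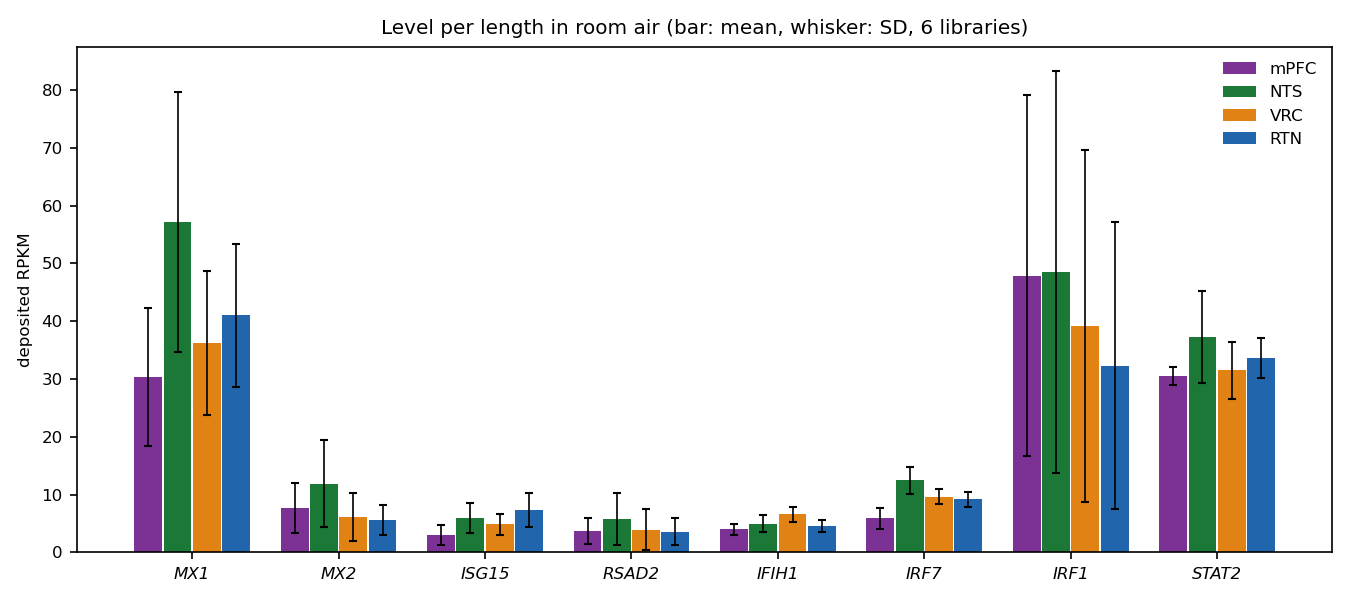
Mean deposited RPKM of each of the 8 genes (x axis) in the 6 room air libraries of each region, with the SD as whiskers. MX1, IRF1 and STAT2 form the upper tier in all 4 regions, with means from 30.4 to 57.2 RPKM, and IRF1 has the widest SD, up to 34.8 RPKM.

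The genes differed most in how far single libraries spread. On counts per M reads scaled with TMM factors (CPM, used within a gene from here on), RSAD2 ranged from 0.478 to 14.8 CPM over the 72 libraries, a 31.0-fold range. MX2 covered a 26.2-fold range, ISG15 a 15.6-fold and IRF1 a 14.5-fold range. STAT2 covered only a 2.31-fold range, from 51.0 to 118.0 CPM. RSAD2 was also the most thinly counted member, with 7 to 361 reads per library, whereas MX1 had 631 to 4463 reads. Counting error alone is therefore largest for RSAD2.

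**Figure D2:**
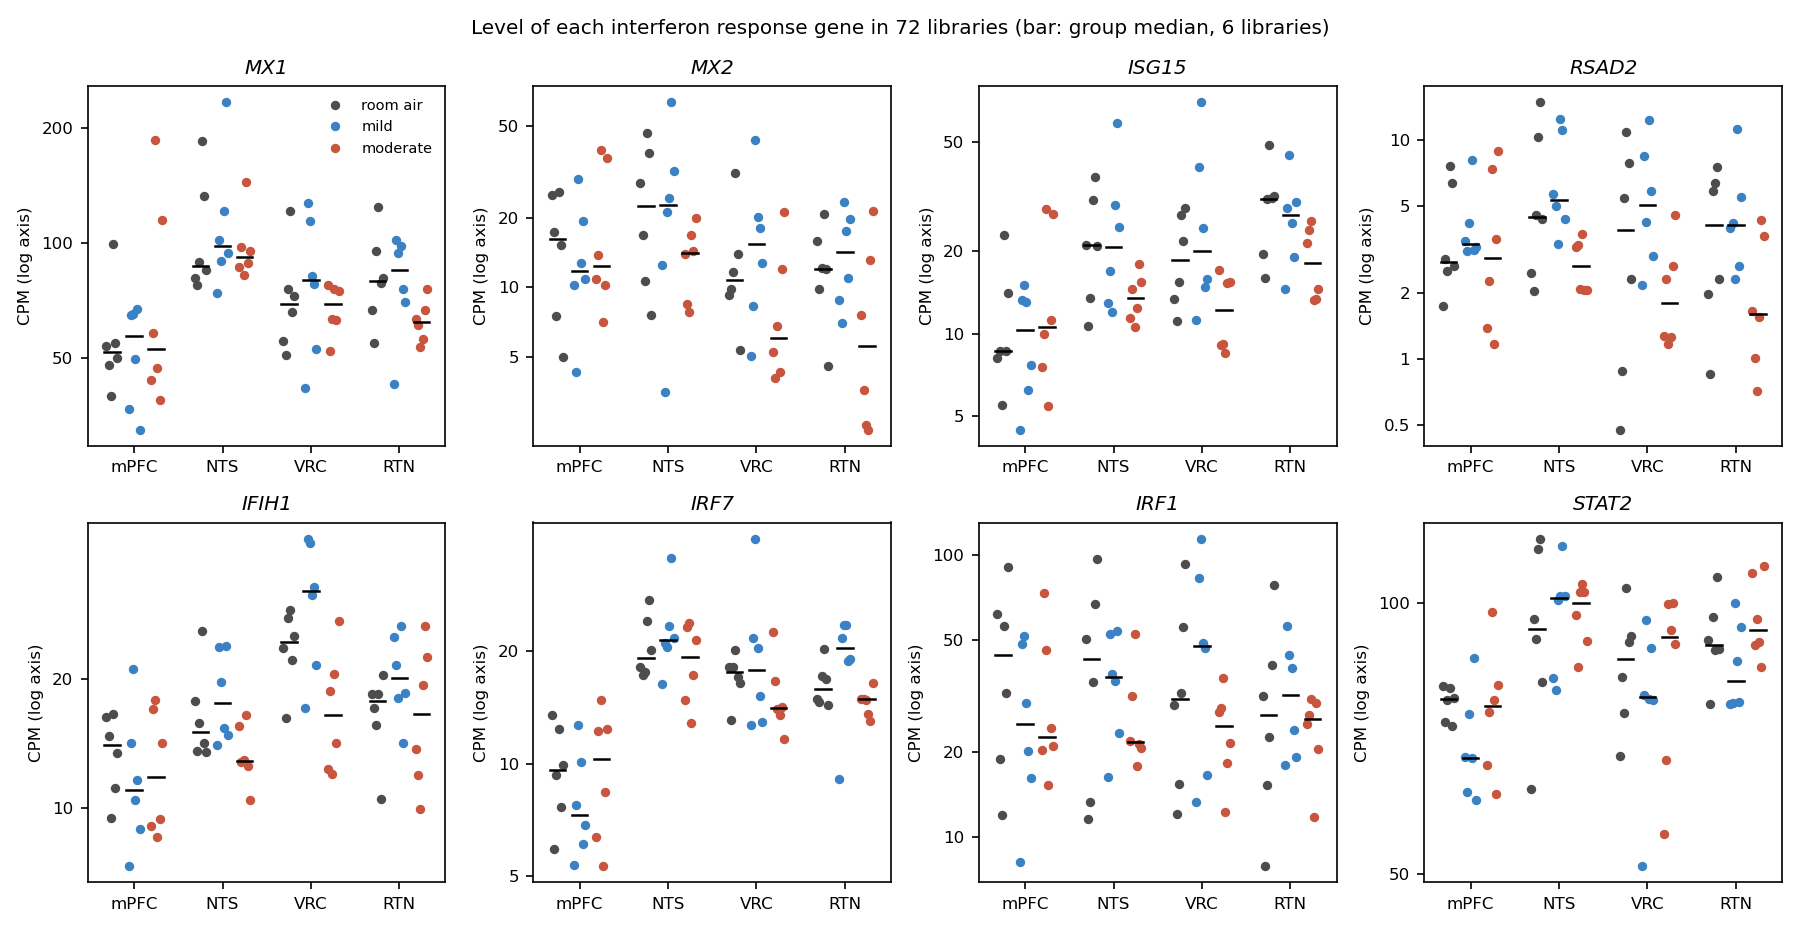
CPM of each gene (log axis) in every library, grouped by region and coloured by condition, with a bar at the median of each group of 6. Most groups overlap widely, and in VRC and RTN the moderate libraries of RSAD2 (0.72 to 4.52 CPM) lie in the lower part of the range.

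In room air the members were ordered over regions with edgeR's quasi-likelihood test on the 24 room air libraries, adjusted by Benjamini-Hochberg over 15700 genes. Differences between these regions were common among all genes, so the calls among the members are read against that background. Between mPFC and NTS 3 of 8 members passed, against 48.3% of all genes. Between mPFC and RTN 3 of 8 passed against 54.8%, and between mPFC and VRC 3 of 8 against 60.3%. Among the brainstem regions 1 of 8 passed between NTS and VRC against 33%, 0 of 8 between NTS and RTN against 21.6%, and 0 of 8 between VRC and RTN against 14.7%. In this fit no share of members called was above that of all genes. The fit does not model that the regions share animals. Of the members called between mPFC and a brainstem region, each was lower in mPFC.

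IRF7 was the member that separated cortex from brainstem most clearly. Its room air libraries stood at 5.91, 9.62 and 13.5 CPM (lowest, median, highest of 6) in mPFC, at 17.2, 19.1 and 27.4 CPM in NTS, at 13.1, 17.5 and 20.1 CPM in VRC and at 14.3, 15.9 and 20.2 CPM in RTN. Every mPFC library was below every NTS and RTN library, and the mPFC and VRC ranges overlapped at their edges. The log2 difference of mPFC from NTS was -1.08 ± 0.17 (SE; edgeR adjusted p = 9.5e-06), from VRC -0.82 ± 0.17 (adjusted p = 0.00018) and from RTN -0.77 ± 0.17 (adjusted p = 0.00039). The 3 brainstem regions did not differ from each other in IRF7 beyond the adjusted threshold.

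ISG15 was likewise lowest in mPFC, at 5.48, 8.66 and 22.9 CPM. RTN held the highest room air level, at 15.9, 31.1 and 48.8 CPM, with NTS at 10.7, 21.0 and 37.2 CPM and VRC at 11.1, 18.6 and 28.8 CPM. The log2 difference of mPFC from RTN was -1.43 ± 0.34 (edgeR adjusted p = 0.0011), from NTS -0.98 ± 0.34 (adjusted p = 0.02) and from VRC -0.81 ± 0.34 (adjusted p = 0.045). The mPFC range reached the other 3 through its highest library, replicate 4 at 22.9 CPM, and in NTS and VRC also through replicate 6 at 14.1 CPM.

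MX1 in room air stood at 39.9, 52.0 and 99.7 CPM in mPFC and at 77.9, 87.1 and 185.0 CPM in NTS. The log2 difference between them was -0.91 ± 0.25 (edgeR adjusted p = 0.004), and VRC (median 69.4 CPM) and RTN (median 79.9 CPM) lay between them. The difference of mPFC from RTN, -0.57 ± 0.25, had an adjusted p of 0.056, and that of NTS from VRC, 0.54 ± 0.25, one of 0.093. IFIH1 had its highest room air level in VRC, at 16.2, 24.5 and 29.1 CPM, against 9.43, 14.1 and 16.6 CPM in mPFC and 13.5, 15.0 and 26.0 CPM in NTS. It was lower in mPFC than in VRC by -0.83 ± 0.19 (log2; adjusted p = 0.00044) and lower in NTS than in VRC by -0.53 ± 0.18 (adjusted p = 0.029). Between VRC and RTN its difference of 0.50 ± 0.18 missed the threshold (adjusted p = 0.07). STAT2 was lower in mPFC (73.1, 78.2 and 80.9 CPM) than in RTN (77.3, 90.0 and 107.0 CPM), by -0.28 ± 0.12 with an adjusted p of 0.048. That STAT2 call was lost with DESeq2 (adjusted p = 0.063), with RLE factors (0.066) and without the filter on low counts (0.062). DESeq2 still called 3 of 8 members between mPFC and RTN. Between mPFC and NTS the STAT2 difference was -0.27 ± 0.12 (adjusted p = 0.057). For that pair of regions DESeq2, RLE factors and the fit without the filter each called 4 of 8 members, instead of 3. MX2, RSAD2 and IRF1 passed in no pair of regions in this fit. MX2 had the smallest p between NTS and RTN, with 0.94 ± 0.46 (adjusted p = 0.15).

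The first question of the design was whether carbon dioxide changed these genes within a region. One edgeR fit per region held its 18 libraries, and none of the 8 members passed an adjusted p of 0.05 in any of the 12 comparisons. limma with quality weights called none either, and DESeq2 called 2, both in VRC between moderate and mild. The edgeR fits called almost nothing else: 0% of the genes tested passed in 11 of the 12 comparisons, and 0.00649% (1 gene) between moderate hypercapnia and room air in NTS. For moderate against mild DESeq2 called 253 genes in VRC and 125 in RTN. Adjusted edgeR calls therefore do not separate the members from other genes, and the lists below use the unadjusted p under 0.05 as a description. Tissue RNA was measured, so fewer cells of a type and less RNA per cell cannot be told apart in any of these values.

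In mPFC 0 of 8 members had an unadjusted p under 0.05 in any comparison, where 3.45% of 15403 genes had one for mild against room air, 2.1% for moderate against room air and 4.71% for moderate against mild. DESeq2 also gave 0 members in each, and limma with quality weights gave 1, 0 and 1. For mild against room air 1 of 8 members was higher and the median log2 difference was -0.16, against -0.01 over all genes. The smallest p was that of STAT2, at 60.4, 67.3 and 87.0 CPM in mild and 73.1, 78.2 and 80.9 CPM in room air, a log2 difference of -0.15 ± 0.11 (unadjusted p = 0.19, edgeR adjusted p = 1.0). For moderate against room air 5 of 8 were higher, with a median of 0.05 against 0.01 over all genes, and without moderate replicate 3 that median was -0.10.

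MX1 had the smallest p of both moderate comparisons in mPFC. Its moderate libraries stood at 39.0, 52.7 and 186.0 CPM, those of mild at 32.6, 57.3 and 67.3 CPM and those of room air at 39.9, 52.0 and 99.7 CPM. Only 2 moderate libraries were high, replicate 3 at 186.0 CPM and replicate 6 at 115.0 CPM, and the other 4 lay between 39.0 and 58.4 CPM. The log2 difference was 0.65 ± 0.35 against mild (unadjusted p = 0.083, edgeR adjusted p = 0.95) and 0.51 ± 0.35 against room air (unadjusted p = 0.16, adjusted p = 1.0). The same 2 libraries were the highest of their group for MX2 (39.2 and 36.5 CPM), ISG15 (28.4 and 27.4 CPM), RSAD2 (7.35 and 8.87 CPM) and IRF7 (14.8 and 12.4 CPM). For moderate against mild 7 of 8 members were higher, with a median of 0.26 against 0.02 over all genes. That median was 0.10 without moderate replicate 3 and 0.45 without mild replicate 3.

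In NTS mild against room air gave 0 of 8 members with an unadjusted p under 0.05, where 4.66% of 15418 genes had one. DESeq2 and limma gave 0 members too. Of 8 members 7 were higher, with a median log2 difference of 0.13. Without mild replicate 5 that median was -0.12, and with a leukocyte marker list as a covariate it was -0.19, with 1 of 8 higher. The smallest p was that of IRF7, with 16.3, 21.3 and 35.4 CPM in mild and 17.2, 19.1 and 27.4 CPM in room air. Its log2 difference of 0.15 ± 0.19 (unadjusted p = 0.43, edgeR adjusted p = 0.88) was -0.02 without mild replicate 5.

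Moderate hypercapnia in NTS went with lower values of most members. Against mild, 7 of 8 members were lower and the difference of STAT2 rounded to 0, with a median of -0.44 against 0.0 over all genes, and 3 of 8 had an unadjusted p under 0.05 and were lower, where 4.02% of genes passed in either direction and 2.32% were lower. Against room air 7 of 8 were lower, with a median of -0.52 against 0 over all genes. There 1 of 8 had an unadjusted p under 0.05, where 13.4% of genes passed in either direction and 7.92% were lower. These directions are those of the fit. By group median MX1 (91.9 against 87.1 CPM), IRF7 (19.3 against 19.1 CPM) and STAT2 (99.8 against 93.6 CPM) were higher in moderate than in room air, and the other members were lower. The 2 comparisons share the moderate libraries.

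RSAD2 had the largest differences of the 8 members in NTS. Its moderate libraries stood at 2.07, 2.65 and 3.73 CPM, those of mild at 3.36, 5.33 and 12.4 CPM and those of room air at 2.05, 4.44 and 14.8 CPM. The moderate libraries were packed at the low end, and the ranges overlapped because some room air and mild libraries were as low. The log2 difference was -1.34 ± 0.44 against mild (unadjusted p = 0.0069, edgeR adjusted p = 1.0) and -1.22 ± 0.44 against room air (unadjusted p = 0.012, adjusted p = 0.33). ISG15 stood at 10.6, 13.5 and 17.9 CPM in moderate and 12, 20.8 and 58.7 CPM in mild, a log2 difference of -0.91 ± 0.35 (unadjusted p = 0.018, adjusted p = 1.0). IFIH1 stood at 10.4, 12.8 and 16.5 CPM in moderate and 14.0, 17.6 and 23.9 CPM in mild, a log2 difference of -0.47 ± 0.18 (unadjusted p = 0.018, adjusted p = 1.0).

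Most leukocyte transcripts were also lower in moderate than in mild hypercapnia in NTS. The leukocyte marker list held 13 genes such as PTPRC and CD3E, none at 0 in all libraries. It summed to 57.1, 70.1 and 130 CPM in mild and to 52.1, 65.2 and 70.5 CPM in moderate. Of its 11 tested genes 10 were lower in moderate than in mild. In room air the list summed to 54.0, 60.1 and 103.0 CPM, with a median below that of moderate. Against room air 8 of the 11 tested genes were lower in moderate. The highest mild library for this list was replicate 5, which was also the highest mild library for MX1, MX2, ISG15, IFIH1, IRF7, IRF1 and STAT2. As a covariate the list entered by the mean log2 CPM of its genes, not by their sum. With it, 0 of 8 members had an unadjusted p under 0.05 between moderate and mild in NTS, instead of 3. In that fit 3.29% of genes had one. The members' median was then -0.02 instead of -0.44, and 4 of 8 were higher. For moderate against room air in NTS the covariate gave a median of -0.36 instead of -0.52, with 2 of 8 higher instead of 1. The list's part in the result was not tested further. The myelin list differed between moderate and room air in NTS as well, at 3960, 6920 and 14900 CPM against 7770, 15500 and 34700 CPM.

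Of the 12 comparisons, moderate against mild in VRC had the median furthest from 0. Mild against room air gave 7 of 8 members higher, with a median log2 difference of 0.40 against 0.01 over all genes, but 0 of 8 had an unadjusted p under 0.05 where 6.23% of 15302 genes had one. DESeq2 and limma gave 0 members as well. Without mild replicate 3 the median was 0.09, and with the leukocyte covariate it was 0.01, with 4 of 8 higher. The smallest p was that of IFIH1, at 17.1, 32.2 and 42.7 CPM in mild and 16.2, 24.5 and 29.1 CPM in room air, a log2 difference of 0.41 ± 0.23 (unadjusted p = 0.089, edgeR adjusted p = 0.81).

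Moderate against room air in VRC gave all 8 members a log2 difference below 0, with a median of -0.52 against 0.01 over all genes. That of STAT2 was only -0.02 ± 0.15, and its median was higher in moderate (91.8 against 86.7 CPM). Of the 8 members 0 had an unadjusted p under 0.05, where 5.67% of genes had one. DESeq2 gave 0 members there and limma 2. IFIH1 again had the smallest p, with moderate libraries at 12, 16.5 and 27.4 CPM and a log2 difference of -0.45 ± 0.23 (unadjusted p = 0.061, edgeR adjusted p = 0.87).

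Moderate against mild in VRC gave 7 of 8 members lower, with a median of -0.95 against 0.0 over all genes. There 5 of 8 had an unadjusted p under 0.05 and were lower, where 15.5% of genes passed in either direction and 7.87% were lower. IFIH1, the RNA sensor, stood at 12, 16.5 and 27.4 CPM in moderate and at 17.1, 32.2 and 42.7 CPM in mild. All 6 moderate libraries were below the mild median, and the ranges overlapped. Its log2 difference was -0.86 ± 0.23 (unadjusted p = 0.0012, edgeR adjusted p = 0.14).

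DESeq2 called IFIH1 in that comparison with an adjusted p of 0.025, and ISG15 with 0.035, where it called 1.65% of all genes. Without moderate replicate 6, the highest moderate library at 27.4 CPM, edgeR called IFIH1 at -1.04 ± 0.22 (adjusted p = 0.03), where it called 1.64% of all genes. limma with quality weights called 0 members there. Calls of these members thus turned on the test and on 1 library.

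ISG15 in VRC stood at 8.48, 12.2 and 17.1 CPM in moderate and at 11.2, 20.1 and 69.8 CPM in mild, a log2 difference of -1.27 ± 0.38 (unadjusted p = 0.003, edgeR adjusted p = 0.16). The mild libraries were spread by replicates 3 and 2, at 69.8 and 40.7 CPM. RSAD2 stood at 1.17, 1.8 and 4.52 CPM in moderate and at 2.18, 5.04 and 12.3 CPM in mild, a log2 difference of -1.46 ± 0.59 (unadjusted p = 0.022, adjusted p = 0.25). IRF1 stood at 12.2, 24.6 and 36.6 CPM in moderate and at 13.3, 47.6 and 114.0 CPM in mild, a log2 difference of -1.17 ± 0.5 (unadjusted p = 0.028, adjusted p = 0.26). MX2 stood at 4.04, 6.01 and 21.2 CPM in moderate and at 5.03, 15.4 and 43.4 CPM in mild, a log2 difference of -1.03 ± 0.5 (adjusted p = 0.32). In each of these 4 genes the highest library was a mild one and the moderate median was below the mild median, and no pair of groups was free of overlap. STAT2 was the 1 member not lower in moderate.

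Markers of immune cells were lower in this comparison too. The leukocyte list summed to 34.6, 48.2 and 173.0 CPM in mild VRC and to 36.4, 39.1 and 39.6 CPM in moderate VRC, and all 10 tested genes were lower in moderate. Mild replicate 3 was the library at 173.0 CPM and the highest mild library for MX2, ISG15, IRF7, IRF1 and STAT2. The microglia and macrophage list (15 genes, none at 0 in all libraries) summed to 480, 548 and 947 CPM in mild and to 320, 399 and 571 CPM in moderate. With the mean log2 CPM of the leukocyte list as a covariate, 2 of 8 members had an unadjusted p under 0.05. In that fit 7.77% of genes had one instead of 15.5%, and the members' median was -0.41. Without mild replicate 3 the median was -0.66.

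In RTN mild against room air gave 5 of 8 members higher, with a median of 0.14 against 0 over all genes (-0.05 without mild replicate 4, and -0.21 with the leukocyte covariate), and 0 of 8 with an unadjusted p under 0.05 where 6.59% of 15343 genes had one. DESeq2 and limma gave 0 members there. The smallest p was that of IRF7, at 9.11, 20.3 and 23.5 CPM in mild and 14.3, 15.9 and 20.2 CPM in room air, a log2 difference of 0.25 ± 0.17 (unadjusted p = 0.15, edgeR adjusted p = 0.8). Only 1 mild library was below the room air median.

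Moderate against room air in RTN gave 6 of 8 members lower, with a median of -0.44 against 0 over all genes, and 2 of 8 with an unadjusted p under 0.05 and lower, where 7.38% of genes passed in either direction and 3.6% were lower. ISG15 stood at 13.3, 18 and 25.7 CPM in moderate and 15.9, 31.1 and 48.8 CPM in room air, a log2 difference of -0.68 ± 0.27 (unadjusted p = 0.023, edgeR adjusted p = 0.64). MX1 stood at 53.6, 62.1 and 75.7 CPM in moderate and 54.8, 79.9 and 124.0 CPM in room air, a log2 difference of -0.43 ± 0.19 (unadjusted p = 0.039, adjusted p = 0.66). For both genes all 6 moderate libraries were below the room air median, and the ranges overlapped.

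Moderate against mild in RTN gave 7 of 8 members lower, with a median of -0.46 against 0.01 over all genes, and 2 of 8 with an unadjusted p under 0.05 and lower, where 10.6% of genes passed in either direction and 6.1% were lower. RSAD2 stood at 0.72, 1.61 and 4.3 CPM in moderate and 2.32, 4.07 and 11.2 CPM in mild, a log2 difference of -1.23 ± 0.52 (unadjusted p = 0.029, edgeR adjusted p = 0.41). IRF7 stood at 13, 14.8 and 16.4 CPM in moderate and 9.11, 20.3 and 23.5 CPM in mild, a log2 difference of -0.43 ± 0.17 (unadjusted p = 0.02, adjusted p = 0.38). The moderate libraries of IRF7 were close together, while 1 mild library was below all of them. The leukocyte list summed to 43.1, 52.1 and 65.1 CPM in mild and 32.2, 41.0 and 47.9 CPM in moderate. With its mean log2 CPM as a covariate 0 of 8 members had an unadjusted p under 0.05 instead of 2. In that fit 4.65% of genes had one, and the members' median was -0.19.

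**Figure D3:**
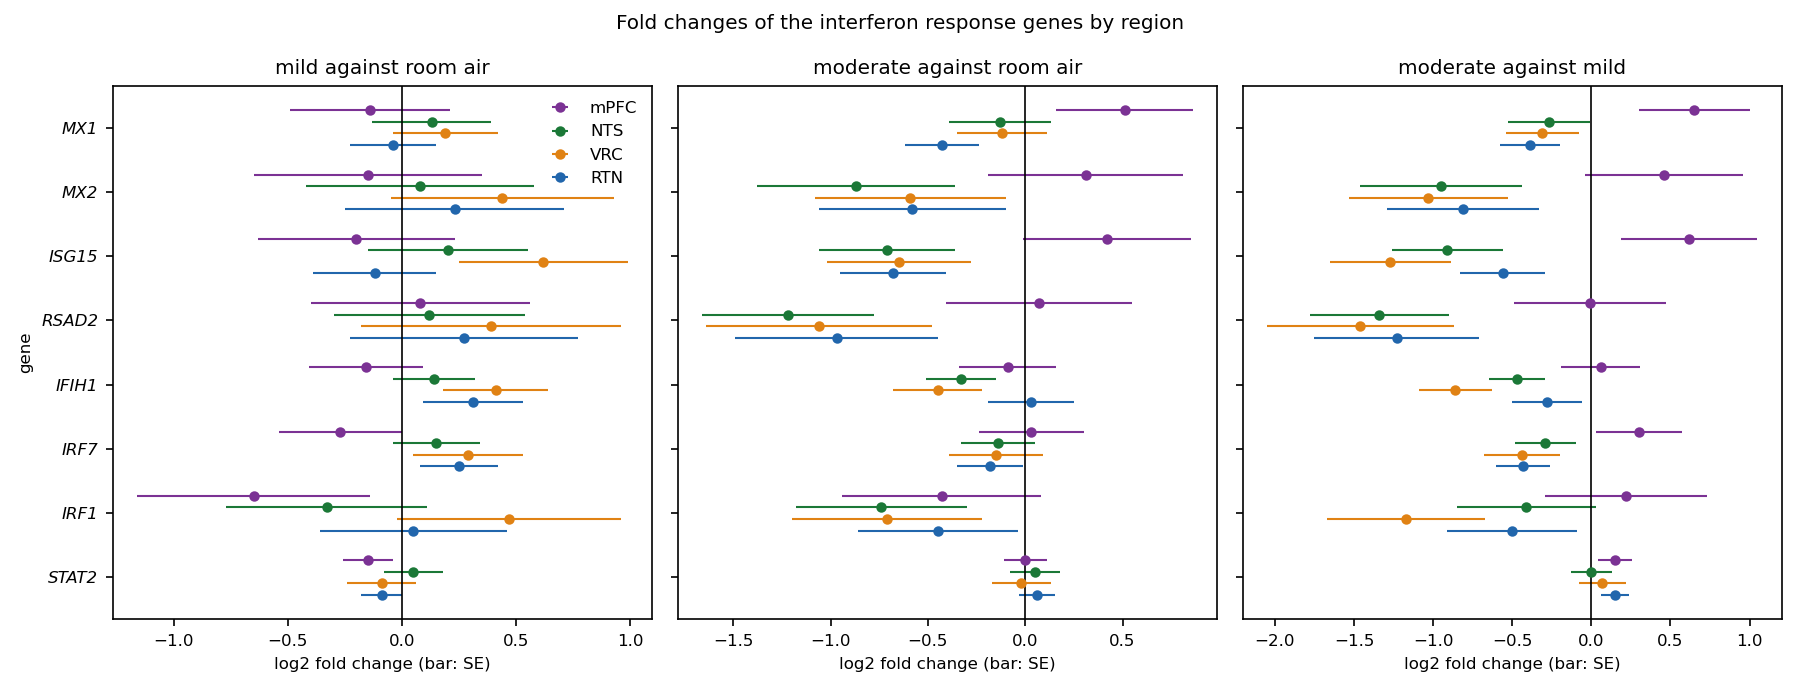
Log2 fold change of each gene (y axis) with its SE, coloured by region, for mild against room air, moderate against room air and moderate against mild. In the moderate against mild panel most brainstem values lie left of 0, down to -1.46 for RSAD2 in VRC, whereas 7 of 8 mPFC values lie right of it, and none passed the adjusted threshold.

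Whether the response differed among the 4 regions was tested in 1 fit over all 72 libraries and 16372 genes. That fit does not model that the regions share animals. For the response to mild hypercapnia 0 of 8 members passed an adjusted p of 0.05 (0% of all genes did), and 0 of 8 had an unadjusted p under 0.05 where 2.4% of genes had one. The smallest p was 0.3, for IRF7. For the response to moderate hypercapnia the member counts were 0 and 0 again, against 0% and 3.83% of genes, and the smallest p was 0.13, for ISG15. In both cases the edgeR adjusted p was 1.0. With the replicate number within each condition as a block, 1 of 8 members had an unadjusted p under 0.05 for mild (4.7% of genes). For moderate 0 of 8 had one (7.66% of genes). No member passed the adjusted threshold in the blocked fit. For moderate against mild, where 7 of 8 members were higher in mPFC and most were lower in the brainstem regions, the difference between regions was not tested.

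For some members the same replicate number was the highest in 3 or 4 regions of 1 condition. In room air replicate 4 was the highest of its 6 libraries in all 4 regions for MX1, at 99.7 CPM in mPFC, 185.0 in NTS, 121.0 in VRC and 124.0 CPM in RTN. Replicate 4 was also highest in all 4 regions for MX2 in room air, at 25.9, 46.7, 31.2 and 20.7 CPM in the same order. In mild hypercapnia replicate 4 was highest in all 4 regions for RSAD2, at 8.11, 12.4, 12.3 and 11.2 CPM.

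In room air IRF1 was highest under another number than MX1 and MX2. Room air replicate 6 was its highest library in all 4 regions, at 90.4 CPM in mPFC, 97.0 in NTS, 93.2 in VRC and 78.1 CPM in RTN, while the same replicate was the lowest of 6 for MX2 in all 4 regions (4.57 to 7.6 CPM). Mild replicate 1 and moderate replicate 4 were the lowest for IRF1 in all 4 regions, at 8.14 to 17.9 CPM and at 11.7 to 17.8 CPM. Those libraries were low for other members too: mild replicate 1 was lowest for IRF7 in 4 regions and for MX1, ISG15 and IFIH1 in 3, and moderate replicate 4 was lowest for ISG15 in 3. Over the 24 pairs of a member and a condition, the same number was highest in 4 regions for 4 pairs and in 3 regions for 5. It was highest in 2 regions for 11 pairs and in no more than 1 region for 4. How often numbers would coincide in this way by chance was not computed.

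The high mPFC libraries of moderate hypercapnia followed this pattern only in part. Replicate 3, with MX1 at 186.0 CPM in mPFC, had 82.7 CPM in NTS, 63.4 CPM in VRC and 53.6 CPM in RTN, and was the lowest moderate library in NTS and RTN. Replicate 6 had 115.0 CPM in mPFC, 95.3 CPM in NTS, 75.0 CPM in VRC and 75.7 CPM in RTN, where it was the highest moderate library. For MX2 replicate 6 was the highest moderate library in all 3 brainstem regions.

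**Figure D4:**
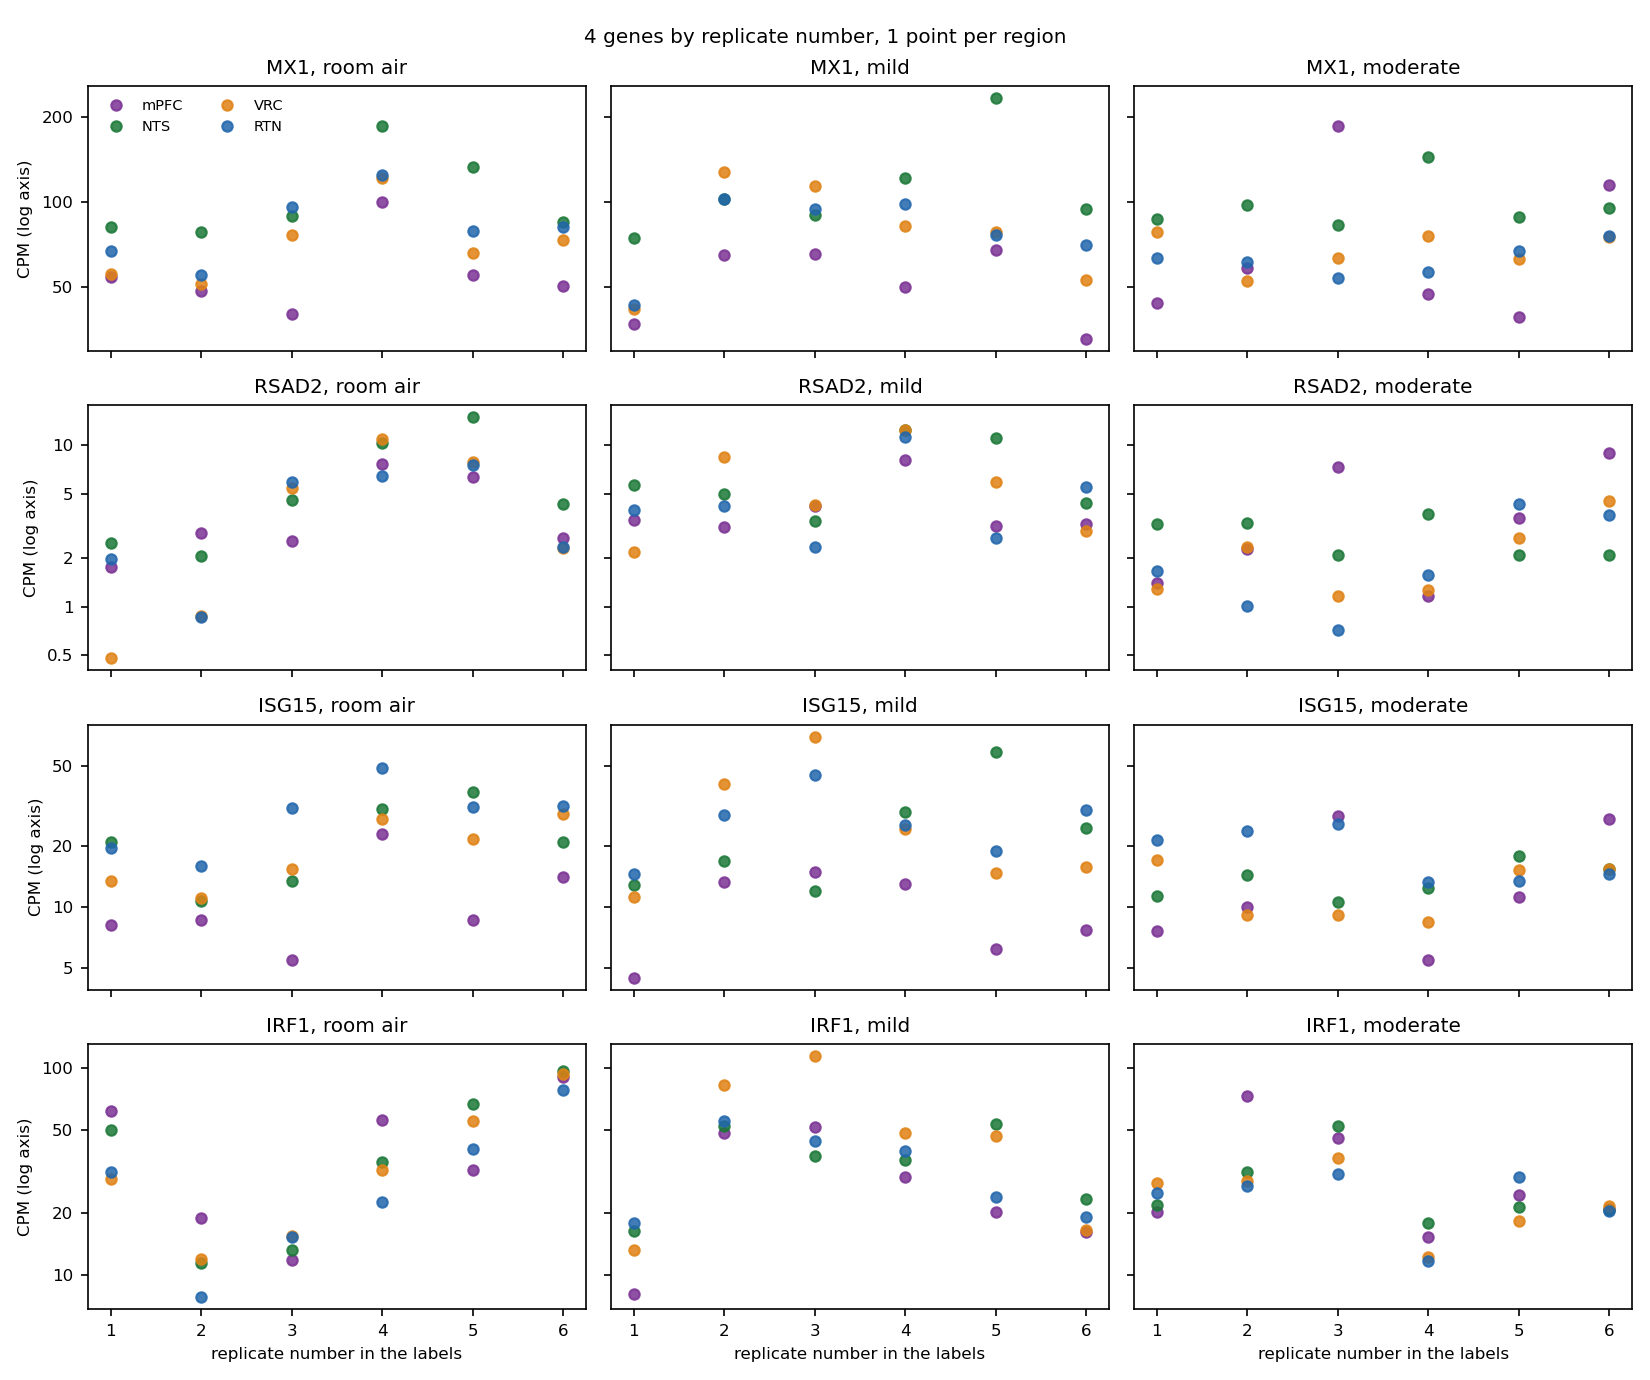
CPM (log axis) of MX1, RSAD2, ISG15 and IRF1 against the replicate number in the labels, with 1 point per region, in room air, mild and moderate hypercapnia. Room air replicate 4 tops MX1 in all 4 regions, room air replicate 6 tops IRF1, and moderate replicate 3 is high for MX1 in mPFC (186.0 CPM) but not in RTN (53.6 CPM).

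Members were compared with each other by Pearson's r of log2 CPM, centred within each of the 12 groups, over the 72 libraries. These values are a description, since libraries share animals and each library's depth and scaling enter all genes. MX1 and ISG15 were closest, with r = 0.759, followed by ISG15 and IRF7 with r = 0.726. IRF1 and MX2 were furthest apart, with r = 0.063. STAT2 was closest to MX1 (r = 0.549) and MX2 (r = 0.54).

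The same measure was used to find the genes outside the list that were most like the mean of the 8 members. The closest was IFIT1, which encodes a protein that binds viral RNA, with r = 0.9 and a range from 4.9 to 87.7 CPM. XAF1 (r = 0.823), HERC6 (0.81), IRF9, the DNA-binding partner of STAT2 (0.81), and PLSCR1 (0.806) came next. IFI44L (0.791), IFI44 (0.79), EPSTI1 (0.78), PARP14 (0.78) and PARP9 (0.759) completed the 10. All 10 were on the interferon pathway lists used below.

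For IRF1 alone the closest genes were TNFAIP3, an inhibitor of NF-κB signalling (r = 0.874), SELP, the endothelial and platelet adhesion molecule P-selectin (0.862), and CXCL10, a chemokine induced by interferon (0.851). For ISG15 they were IFI6 (0.771), IFIT1 (0.758) and UBA7, the enzyme that activates ISG15 for conjugation (0.647). For STAT2 they were OCRL (0.821), ZNFX1 (0.81) and ANKFY1 (0.808). OCRL and ANKFY1 are genes of membrane traffic and ZNFX1 is an RNA sensor, and these 3 were on none of the lists.

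The rest of the pathway was counted from 4 lists outside the members: receptors and signalling, sensors and adaptors, effectors and negative regulators. Of 95 listed genes 70 had a row, and 67 or 68 were tested per region. Of 9 listed interferon ligands 3 had a row under their symbol. These 3 were close to absent in the counts, and none passed the filter. The rest had no row under their symbol, and 6643 genes carry no symbol, so the counts of the rest were not seen. IFNG had at most 9 reads in a library and 0 reads in 47 of 72 libraries, IFNK had 0 reads in 64 and IFNE in 71. In the edgeR fits no listed gene passed the adjusted threshold in any condition comparison, where almost no gene of any kind did. Calls on these lists under DESeq2 are not given here.

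In VRC mild against room air, 55 of the 67 tested pathway genes were higher, and 17 had an unadjusted p under 0.05 and were higher, where 3.61% of all genes did so. The median was 0.25 against 0.01 over all genes. TLR7 and TLR8 are endosomal receptors that sense RNA. TLR8 averaged 3.51 ± 2.52 CPM (SD, n = 6) in mild and 0.953 ± 0.523 CPM in room air, a log2 difference of 1.89 ± 0.46 (unadjusted p = 5e-04, edgeR adjusted p = 0.35). TLR7 had a log2 difference of 0.97 ± 0.29 (adjusted p = 0.65). IKBKE, a kinase that activates IRF3 and IRF7, averaged 9.27 ± 2.9 CPM in mild and 5.5 ± 0.933 CPM in room air, a log2 difference of 0.78 ± 0.17 (adjusted p = 0.29). GBP2, an interferon-induced GTPase, had the smallest p among the effectors, with 1.62 ± 0.6 (adjusted p = 0.76). All 10 tested leukocyte genes were also higher in this comparison, with a median of 1.08. Mild replicate 3 summed to 173.0 CPM for the leukocyte list, where the median of the mild libraries was 48.2 CPM. Without that library the median of the 8 members was 0.09 instead of 0.40. Pathway counts without it or with the leukocyte covariate are not given here.

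In VRC moderate against mild, 56 of 67 pathway genes were lower, with 30 at an unadjusted p under 0.05, where 7.87% of all genes were lower at that level, and a median of -0.45 against 0.0 over all genes. Against room air 51 of 67 were lower in moderate VRC, but only 2 were lower and 1 higher at an unadjusted p under 0.05, where 5.67% of all genes passed in either direction. Between moderate and mild 35 of 37 effectors were lower, 21 of them at an unadjusted p under 0.05, where 7.87% of all genes were. IFI44L averaged 5.87 ± 2.13 CPM in moderate and 13.3 ± 5.0 CPM in mild, a log2 difference of -1.20 ± 0.30 (edgeR adjusted p = 0.12). EPSTI1 (-1.11 ± 0.29) and IFI35 (-0.92 ± 0.24) had an adjusted p of 0.13 each. IRF9, which joins STAT2 in its complex, had -0.68 ± 0.22 (adjusted p = 0.17). The microglia and macrophage list was lower as well, in 13 of 13 tested genes and with a median of -0.63. Mild replicate 3 enters this comparison too, and pathway counts without it are not given here.

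NTS and RTN gave smaller counts in the same direction. In NTS moderate against room air 48 of 68 pathway genes were lower, 13 at an unadjusted p under 0.05, where 7.92% of all genes were. Most of these were effectors, of which 33 of 37 were lower, 11 at that level. Of receptors and signalling 8 of 13 were lower and of negative regulators 4 of 6, while 9 of 12 sensors and adaptors were higher. OAS1, whose product activates RNase L, averaged 74.6 ± 20.7 CPM in moderate and 141.0 ± 46.4 CPM in room air, a log2 difference of -0.92 ± 0.26 (edgeR adjusted p = 0.33). In NTS moderate against mild 52 of 68 were lower, 7 at an unadjusted p under 0.05, where 2.32% of all genes were. In RTN moderate against mild 52 of 67 were lower, 12 at an unadjusted p under 0.05, where 6.1% of all genes were, and 2 were higher at that level. IFIT1 averaged 12 ± 3.89 CPM in moderate RTN and 21.9 ± 7.19 CPM in mild RTN, a log2 difference of -0.89 ± 0.26 (adjusted p = 0.22). In RTN moderate against room air 46 of 67 pathway genes were lower, with 31 of 37 effectors but only 6 of 12 sensors and adaptors. Only 3 of the 46 had an unadjusted p under 0.05, where 3.6% of all genes were lower at that level.

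In mPFC the pathway lists gave 52 of 67 genes higher for moderate against mild, with a median of 0.16 against 0.02 over all genes, and 0 at an unadjusted p under 0.05. IFIT1 averaged 30.0 ± 29.7 CPM in moderate mPFC and 16.9 ± 9.57 CPM in mild mPFC, a log2 difference of 0.85 ± 0.50 (unadjusted p = 0.1, edgeR adjusted p = 0.95). Its highest library reached 87.7 CPM, and the SD of the moderate libraries was about as large as their mean.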

How the data were processed

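Bulk RNA was sequenced in 72 libraries (12 groups of 6). The deposited table gives raw counts per gene as whole numbers, with 1 column per library and none pooled, and the RPKM values the authors deposited beside them, per the file headers. A further deposited column gives the gene model length in bases, per the file headers. Per the submitters' processing notes FastQC, Trimmomatic, STAR, featureCounts and edgeR were used, with versions, build, annotation release and strandedness not given in the sources used here. Per the labels' protocols the libraries came from a kit for low input of total RNA. Whether reads were counted by strand is thus unknown, and reads of overlapping antisense genes could be included. A symbol is missing for 6643 genes.

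The counts were fitted with edgeR 4.0.16 in R 4.3.3 (genes kept by filterByExpr at min.count 10, TMM scaling, quasi-likelihood F-test, Benjamini-Hochberg over all genes tested, threshold 0.05): 18 libraries per region for the conditions, 24 room air libraries for the regions, and all 72 for the difference in response. Scripts were tested on simulated data. The alternatives were DESeq2 1.42.0, limma 3.58.1 with quality weights, RLE scaling, testing genes of any count, blocking on the replicate number, a myelin or leukocyte list as a covariate, and leaving out each library. A list used as a covariate entered as the mean log2 CPM of its genes. CPM uses TMM factors over the 72 libraries. Within every group all pairs of libraries differed by more than sampling noise (chi-square of their counts divided by its degrees of freedom, 15.3 at least).

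The members, lists and tests were chosen with earlier results of these data known. All members were named with their levels. A fold change is given where the unadjusted p was under 0.05, or for the smallest p of a comparison where none was, and of each pathway list the text takes examples from the 3 genes with the smallest p. Library totals of 12.84 to 31.88 M counts gave 7 or more reads for every member in every library. Promoter and protein sequences are not used here.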

Additional observations from a re-analysis of the deposited data

Results flagged for a closer look

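In 12 of the 96 groups of 6 libraries (8 genes in 12 groups), the highest or lowest library lay far from the other 5, with a gap to its nearest neighbour, relative to the group's range, above Dixon's 95% critical value. For normally distributed values chance would flag about 1 in 20 groups. Whether that rate holds for these CPM values was not tested, and groups of related genes in the same libraries are not independent.

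For MX1 these were room air replicate 4 in mPFC at 99.7 CPM (others 39.9 to 54.9) and in VRC at 121.0 CPM (others 50.9 to 76.1), mild replicate 5 in NTS at 233.0 CPM (others 74.2 to 121.0), and moderate replicate 4 in NTS at 144.0 CPM (others 82.7 to 97.4). Room air replicate 4 also stood apart for MX2 in VRC, at 31.2 CPM (others 5.34 to 14.0), and for IFIH1 in NTS, at 26.0 CPM (others 13.5 to 17.8).

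Mild replicate 5 in NTS stood apart for ISG15 at 58.7 CPM (others 12 to 29.5) and for IRF7 at 35.4 CPM (others 16.3 to 23.3). Mild replicate 4 stood apart for RSAD2, at 8.11 CPM in mPFC (others 3.11 to 4.17) and at 11.2 CPM in RTN (others 2.32 to 5.49). For IRF7, mild replicate 3 in VRC was high at 39.8 CPM (others 12.7 to 21.6), and mild replicate 1 in RTN was the 1 low library among the 12, at 9.11 CPM (others 18.8 to 23.5).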

How the results depend on the processing

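The 8 members passed an adjusted p of 0.05 in no condition comparison under any alternative except in VRC between moderate and mild, where DESeq2 called 2 and leaving out moderate replicate 6 gave 1 (leave-one-out range 0 to 1). Among the members named for a comparison the direction of 1 reversed: IRF7 in NTS for mild against room air (0.15) was -0.12 with the leukocyte covariate and -0.02 without mild replicate 5 (leave-one-out range -0.02 to 0.24). Over all 8 members, the leukocyte covariate turned more signs: for mild against room air the number higher went from 7 to 1 in NTS (median -0.19), 7 to 4 in VRC (0.01) and 5 to 2 in RTN (-0.21), for moderate against room air in mPFC from 5 to 3 (-0.08), and for moderate against mild in NTS it was 4 (-0.02). For moderate against room air the leukocyte covariate gave medians of -0.36 in NTS, -0.49 in VRC and -0.45 in RTN. Without it they were -0.52, -0.52 and -0.44. Members at an unadjusted p under 0.05 there numbered 1 (13.9% of all genes), 0 (5.35%) and 2 (7.43%), as without it. The myelin covariate left 4 of 8 higher for mild against room air in NTS. Counts of members at an unadjusted p under 0.05 moved as follows, with the share of all genes at that level in the same fit as a percentage, and the cause was not tested. With the leukocyte covariate they were 1 for mild (5.19%) and 1 for moderate (2.12%) against room air in mPFC, 0 (from 3; 3.29%) for moderate against mild in NTS, 2 (from 5; 7.77%) in VRC and 0 (from 2; 4.65%) in RTN. With limma they were 1 for mild against room air (6.99%) and 1 for moderate against mild (4.12%) in mPFC, 2 for moderate against room air in VRC (8.89%), and 4 (against room air, 9.99%) and 5 (against mild, 15.1%) for moderate in RTN. With the myelin covariate they were 2 for moderate against room air in NTS (3.55%) and 4 for moderate against mild in RTN (12.4%), and DESeq2 gave 2 (14.7%) and 4 (11.3%) there as well. Depth limits RSAD2 most, with as few as 7 reads in a library.

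Leaving out 1 library gave 0 to 1 in mPFC for mild against room air (2.49 to 6.88% of all genes) and for moderate against mild (3.36 to 7.45%). It gave 1 to 3 for moderate against mild (3.07 to 6.31%) and 0 to 3 for moderate against room air (6.99 to 22.1%) in NTS (3 without room air replicate 2, 0 without room air replicate 5). In VRC it gave 0 to 2 for mild (4.58 to 9.31%) and 0 to 3 for moderate (4.22 to 10.6%) against room air, and 3 (without mild replicate 3) to 6 (without mild replicate 1) for moderate against mild (11.2 to 19.9%). In RTN it gave 0 to 1 for mild against room air (4.51 to 8.05%), and 0 to 4 for moderate against room air (6.03 to 8.7%) and against mild (8.36 to 15.3%).

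Besides the room air calls given above, DESeq2 called 1 member (IFIH1) between VRC and RTN (18.1% of all genes), instead of 0. The 4 members called between mPFC and NTS compare with 48.3% of all genes with RLE factors and 39.8% without the filter. With DESeq2 they compare with 7856 of 15700 genes. For NTS against RTN the members with an unadjusted p under 0.05 numbered 2 with DESeq2 (34.5% of all genes), 2 with RLE factors (33.5%) and 1 without the filter (28.8%), instead of 0 (33.8%).

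With the replicate number as a block (replicate block), the counts at an unadjusted p under 0.05 were 2 for moderate against room air in NTS (16.6% of all genes), 3 for moderate against mild in VRC (18.2%) and 1 for moderate against room air in RTN (6.78%). Within a region this block ties libraries of different conditions, which come from different animals, so these counts test no pairing. Among regions the block was the number within a condition. It gave 1 member for the mild response (4.7%) and 0 for the moderate response (7.66%). Between regions in room air the replicate block called more members and more of all genes in each pair: 5 members and 59.6% of all genes between mPFC and RTN, 4 and 53.7% between mPFC and NTS, 4 and 64.2% between mPFC and VRC, 3 and 40.1% between NTS and VRC, 2 and 28.1% between NTS and RTN, and 2 and 21.7% between VRC and RTN. The members' share was above that of all genes in mPFC against RTN and in VRC against RTN. At an unadjusted p under 0.05 it gave 4 members (39.5% of all genes) and 2 (34.6%) in the last 2 pairs. The numbers were not taken to pair libraries: of 108 pairs of same-numbered libraries from 2 regions of 1 condition, 90 had deviations correlated above 0.1 (median r 0.276), and 65 of 72 libraries were closest to their own number, a hint from the data. Between conditions 28 of 72 same-numbered pairs were above 0.1 (median r 0.0122).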
